A study of Bos taurus with 5 samples.

Results

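The genes described here encode the collagens and other proteins of the extracellular matrix, with the enzymes that process and break them down and the cell surface proteins that bind them. They were chosen by gene symbol alone, with a fixed pattern of name stems such as COL, LAM, FBN, ADAM, TIMP and SPARC, and 116 of the 9022 genes listed matched it, with 176 transcripts. The samples were longissimus dorsi, a long back muscle, of 5 Jiaxian Red cattle aged 18 months, with total RNA of each animal sequenced as 1 library. The labels name no treatment, genotype or second breed, so all 5 libraries, numbered 1 to 5 as in their titles, form 1 group and no comparison between groups exists. Each library stands for 1 animal, so effects of the animal cannot be told apart from those of dissection, RNA quality or library preparation. Values are FPKM, a read measure corrected for transcript length and sequencing effort, added up per gene. The depth of sequencing is unknown because the values are not counts. The summed FPKM of a library ran from 193706 to 223251. Of 12 muscle fibre markers looked for, 10 were listed and all 10 were detected, with a summed level of 23810 to 27936 FPKM. This marks muscle tissue but does not tell longissimus dorsi from another muscle. Their levels were uneven. ACTA1 averaged 5134 FPKM, while CKM ran from 2.50 FPKM in library 5 to 35.5 in library 1. MB ran from 106 FPKM in library 1 to 766 in library 5. The transcript numbers of MB skipped numbers, so its sum may be partial.

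Muscle fibres lie in a connective tissue framework whose tensile strength comes from fibrillar collagens, chiefly types I and III. Each fibre is wrapped in a basement membrane of type IV collagen, laminin, nidogen and perlecan, and type VI collagen ties that sheet to the surrounding matrix. Collagen chains are hydroxylated and folded in the endoplasmic reticulum, trimmed outside the cell and crosslinked by lysyl oxidases, while metalloproteinases and their tissue inhibitors govern breakdown. Fibroblasts and fibro-adipogenic cells are the main source of the fibrillar collagens in muscle, and the amount and crosslinking of this matrix is known to bear on meat toughness.

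Genes averaging 1 FPKM or more were called detected, and this held for 79 of the 116 matrix genes (68.1%), beside 68.0% of all listed genes. The matrix genes were thus detected about as often as genes at large. An average of 10 FPKM or more was found for 40 of them (34.5%), against 24.1% of all genes, and 6 exceeded 100 FPKM: COL3A1, SPARC, COL4A1, COL6A1, COL1A2 and COL15A1. Together the 116 genes held 1.55%, 0.955%, 1.11%, 1.22% and 1.02% of the summed FPKM of libraries 1 to 5, a mean of 1.17% ± 0.233 (SD, n = 5). The share was highest in library 1 and lowest in library 2. The 5 genes of highest mean made up 44.9% ± 3.43 of the matrix FPKM (SD, n = 5), so the sum follows a few abundant transcripts. The transcript numbers of 34 of the 116 genes skipped numbers, called gaps here, so the sums of those genes may leave out transcripts. COL4A3BP, a ceramide transfer protein, and LOXHD1, a protein of inner ear hair cells, matched the name pattern without being matrix proteins.

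**Figure D1:**
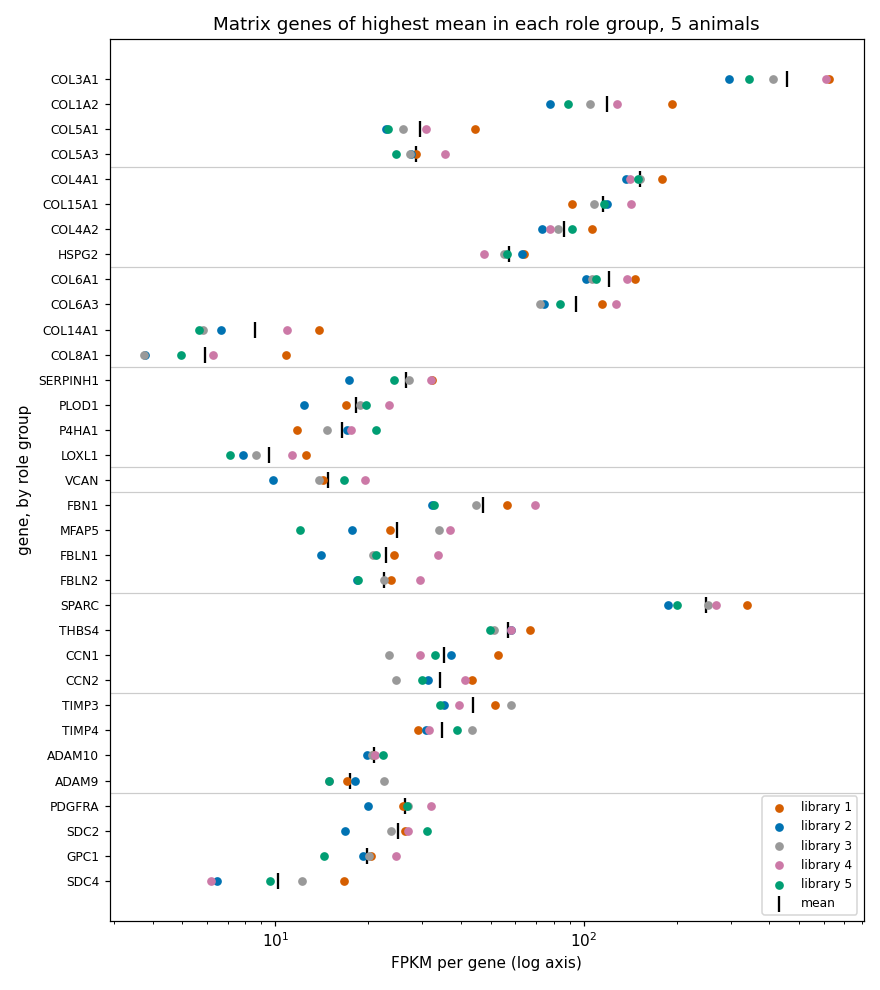
FPKM per gene (log axis) for the detected genes of highest mean, up to 4 in each role group, with 1 point per library and a black bar for the mean of 5 animals; lines part the role groups. COL3A1 lies highest, at 297 to 625 FPKM, and in most rows the points of libraries 1 or 4 lie to the right of that of library 2.

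The fibrillar collagens were led by COL3A1, the single chain of type III collagen. COL3A1 stood at 625, 297, 409, 609 and 345 FPKM in libraries 1 to 5, a mean of 457 ± 152 FPKM (SD, n = 5), which was rank 41 of the 6136 detected genes. Libraries 1 and 4 lay well above the other 3. The gene, ENSBTAG00000021466, was placed on chromosome 2 from 7375289 to 7414912 in the file's coordinates, for which no build is claimed. COL1A2, the alpha 2 chain of type I collagen (ENSBTAG00000013472, chromosome 4 from 11776554 to 11812997), was measured at 193, 77.6, 105, 128 and 89.1 FPKM. It followed the same order of animals as COL3A1, with library 1 further ahead. Type V collagen, which sets the diameter of type I fibrils, was represented by all 3 of its chains. COL5A1 was at 44.3, 22.8, 26.0, 30.9 and 23.3 FPKM in libraries 1 to 5, and COL5A3 at 28.7, 27.5, 27.3, 35.5 and 24.6. COL5A2 averaged 2.31 ± 0.554 FPKM (SD, n = 5) and was lowest in library 5. Its listed interval lay 18002 bases from that of COL3A1 on chromosome 2, and its transcript numbers had gaps, so its sum may be partial. The cartilage collagens COL11A1 and COL11A2 lay under the detection limit. COL11A2 reached 1.39 FPKM in library 5, with 0.296 the highest of its other values, and COL11A1 was listed at 0 in library 5 and reached 0.0889 in library 1. The summed fibrillar collagens spanned 2.10-fold between animals, from 427 FPKM in library 2 to 895 in library 1. All 5 detected chains were higher in library 1 than in library 2, where 50.9% of all detected genes were. With so few chains nothing is read from that count. COL1A1 was not analysed here.

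Type VI collagen forms beaded filaments around the muscle basement membrane, and 2 of its abundant chains were listed. COL6A1 was at 147, 102, 107, 138 and 109 FPKM in libraries 1 to 5, a mean of 121 ± 20.5 (SD, n = 5), and lay on chromosome 1 from 145668949 to 145687210. COL6A3, on chromosome 3 from 116782465 to 116855219, was at 115, 74.4, 72.2, 128 and 83.6 FPKM. Both chains had their 2 highest values in libraries 1 and 4. COL14A1, which binds to the surface of fibrils, was at 13.8, 6.67, 5.85, 10.9 and 5.66 FPKM, again highest in libraries 1 and 4. COL8A1, a short-chain network collagen of vessels, was at 10.8, 3.78, 3.76, 6.29 and 4.95 FPKM, highest in library 1. COL12A1, another fibril-associated collagen, averaged 3.40 ± 1.42 FPKM and was highest in library 1, whereas COL16A1, at 1.74 ± 0.289 FPKM, was highest in library 2 (SD, n = 5). COL6A5, COL13A1, COL20A1 and COL23A1 lay under a mean of 1 FPKM, and among these the highest single value was 1.496 FPKM, for COL23A1 in library 5.

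The basement membrane genes were abundant, with COL4A1 and COL15A1 each averaging over 100 FPKM. Their summed level was 602, 516, 526, 551 and 556 FPKM in libraries 1 to 5, a span of 1.17-fold. The median SD of log2(FPKM + 1) over their 12 detected members was 0.22, against 0.38 for the 5 detected fibrillar chains and 0.25 for all detected genes; the difference between the groups was not tested. COL4A1, the alpha 1 chain of the type IV network (ENSBTAG00000012849, chromosome 12 from 84863917 to 84995777), was at 180, 137, 152, 141 and 150 FPKM in libraries 1 to 5. COL4A2, its partner chain on the same chromosome from 85040120 to 85153241, was at 106, 73.2, 82.7, 77.9 and 91.8 FPKM. Library 1 was highest and library 2 lowest for both chains. COL15A1, a collagen of the zone between basement membrane and fibrils, went the other way. It was at 91.4, 119, 108, 142 and 116 FPKM, with its lowest value in library 1. The transcript numbers of COL15A1 and COL4A2 had gaps, so their sums may be partial. HSPG2, the heparan sulfate proteoglycan perlecan, was at 64.2, 63.0, 55.2, 47.5 and 56.5 FPKM, so libraries 1 and 2 lay together at the top and library 4 at the bottom.

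Laminins are trimers of an alpha, a beta and a gamma chain, and LAMA2, the alpha chain of the muscle fibre laminin, was the most abundant alpha chain listed. LAMA2 averaged 37.3 ± 3.69 FPKM and LAMA4, the alpha chain of vessel laminins, 21.4 ± 3.71 (SD, n = 5). LAMA2 was highest in library 4 and LAMA4 in library 1. LAMB1 was at 32.8, 17.7, 19.8, 22.1 and 25.6 FPKM in libraries 1 to 5, and LAMA5 averaged 3.15 ± 0.796 FPKM, both highest in library 1. NID2, a nidogen that links laminin to type IV collagen, averaged 16.0 ± 1.62 FPKM, and COL18A1, the precursor of endostatin, 10.8 ± 3.49 (SD, n = 5). COL18A1 reached 16.8 FPKM in library 1 and stayed between 8.32 and 11.1 elsewhere. AGRN, the proteoglycan agrin that gathers acetylcholine receptors at the nerve terminal, was at 6.35 FPKM in library 5 and at 0.907, 0.293, 0.339 and 0.461 in libraries 1 to 4. It passed the detection limit through library 5 alone, and without that library its mean was 0.4998 FPKM. LAMA3, LAMB3, LAMC3, COL4A3, COL4A4 and COL4A6 lay under a mean of 1 FPKM, and the highest value among them was 1.29 FPKM, for COL4A3 in library 2. COL4A3BP, whose product is not a matrix protein, averaged 22.5 ± 1.74 FPKM (SD, n = 5).

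Among genes that process collagen, the chaperone, the hydroxylases and the crosslinking enzymes did not share 1 order of animals. SERPINH1, the collagen chaperone HSP47, was at 32.2, 17.4, 27.1, 32.0 and 24.3 FPKM in libraries 1 to 5, with libraries 1 and 4 on top as for COL3A1. LOXL1, a lysyl oxidase of elastic fibres, was at 12.6, 7.86, 8.63, 11.4 and 7.11 FPKM, again with libraries 1 and 4 on top. PLOD1, a lysyl hydroxylase, was at 16.9, 12.4, 18.9, 23.4 and 19.8 FPKM, so that library 1 was second lowest. P4HA1, the main catalytic subunit of prolyl 4-hydroxylase, was at 11.8, 17.1, 14.7, 17.7 and 21.2 FPKM and thus lowest in library 1, where COL3A1 and COL1A2 were highest. The related subunit P4HA2 showed the opposite end there, averaging 5.17 ± 1.57 FPKM with its highest value, 7.63, in library 1 (SD, n = 5). P4HA1 and P4HA2 had gaps in their transcript numbers, so their sums may be partial. PLOD2, the lysyl hydroxylase of the collagen ends, was at 1.32 FPKM in library 1 and between 3.33 and 6.58 in the other 4. BMP1 and ADAMTS2, which cut off the propeptides at both ends of procollagen, averaged 2.44 ± 0.820 and 7.10 ± 2.21 FPKM, and LOXL2, another crosslinking enzyme, 5.91 ± 1.56 (SD, n = 5). The other propeptidases ADAMTS3 and ADAMTS14 averaged under 1 FPKM. P4HB, the beta subunit that all prolyl 4-hydroxylases share, was listed at 0.308 to 0.864 FPKM from a single transcript with a gap in its numbering, so this sum may be partial. LOXHD1 was listed at 0 in libraries 2, 3 and 5.

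Elastic fibres were represented by the microfibril gene FBN1 and by fibulins. FBN1, which encodes fibrillin 1, was at 56.6, 32.1, 44.7, 69.7 and 32.8 FPKM in libraries 1 to 5, and FBLN1 at 24.3, 14.1, 20.8, 33.7 and 21.2. Library 4 was the highest and library 2 the lowest for both. MFAP5, a microfibril glycoprotein, was at 23.5, 17.8, 34.01, 37.0 and 12.1 FPKM, so libraries 3 and 4 lay above the rest. FBLN2 was at 23.7, 18.4, 22.6, 29.4 and 18.5 FPKM, with library 4 on top. ELN, the elastin gene, averaged 16.9 ± 3.42 FPKM and was highest in library 1 (SD, n = 5). The latent TGF-beta binding proteins, which store that growth factor in the matrix, were led by LTBP4 at 21.0 ± 2.69 FPKM, ahead of LTBP1 at 7.24 ± 2.17 (SD, n = 5). LTBP2 stood at 2.60, 3.02 and 1.94 FPKM in libraries 1 to 3, but at 0.163 and 0.191 in libraries 4 and 5. LTBP3 was lowest in library 4, at 1.65 FPKM in library 4 and 4.69 to 7.11 elsewhere. Both LTBP2 and LTBP3 had gaps in their transcript numbers, so their sums may be partial. EMILIN2, EMILIN3, MFAP2 and FBLN5 averaged between 1.26 and 4.60 FPKM. FBN2, a fibrillin of developing tissue, and FBN3 averaged under 1 FPKM, and both were highest in library 5.

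Of the small proteoglycan group, which in the name pattern covers decorin, lumican and their relatives, VCAN was the gene listed. VCAN, the large hyaluronan-binding proteoglycan versican, was at 14.3, 9.80, 13.9, 19.6 and 16.7 FPKM in libraries 1 to 5, highest in library 4 and lowest in library 2. DCN, LUM, BGN, FMOD, OGN, ASPN and PRELP were not analysed here.

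SPARC led the adhesive and matricellular glycoproteins and was the second most abundant matrix gene. SPARC, also called osteonectin, binds collagen and takes part in its deposition, and lay on chromosome 7 from 62874446 to 62897221. It was at 339, 188, 253, 268 and 200.1 FPKM in libraries 1 to 5, a mean of 250 ± 60.3 (SD, n = 5). Its order of animals was that of COL3A1 and COL1A2. THBS4, a thrombospondin of tendon and muscle attachment, was more even, at 67.1, 58.3, 51.1, 58.1 and 49.6 FPKM. The related genes CCN1 and CCN2 (CYR61 and CTGF), which respond to mechanical strain, were at 52.9, 37.2, 23.4, 29.5 and 32.9 FPKM and at 43.6, 31.2, 24.6, 41.2 and 29.9 FPKM. Library 1 was the highest and library 3 the lowest for both. FN1, fibronectin, was at 42.2, 23.3, 34.1, 30.3 and 13.1 FPKM, lowest in library 5. POSTN, periostin, was at 10.2, 3.19, 7.998, 9.28 and 3.09 FPKM, with its lowest values in libraries 2 and 5. Between animals its log2(FPKM + 1) values had an SD of 0.72. MATN2, a matrilin, averaged 4.99 ± 1.87 FPKM and was highest in library 4 (SD, n = 5). TNC, tenascin C, was at 1.99 FPKM in library 1, at 0.0275 in library 5 and listed at 0 in libraries 2, 3 and 4. THBS2 was listed at 0 in library 2 and reached 1.31 FPKM in library 4, and CCN4 and SPARCL1 stayed under 0.5 FPKM in every library.

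The inhibitors of metalloproteinases stood above the proteinases listed. TIMP3, an inhibitor that stays bound to the matrix, was at 51.4, 35.2, 58.3, 39.3 and 34.2 FPKM in libraries 1 to 5, and TIMP4, the inhibitor typical of heart and skeletal muscle, at 29.0, 30.9, 43.3, 31.4 and 38.8. Library 3 was the highest for both, unlike for any of the fibrillar collagens. Of the matrix metalloproteinases, MMP15, a membrane-bound form, was at 8.59, 5.50, 8.23, 8.22 and 9.20 FPKM, with library 2 apart below the rest. MMP11 averaged 1.14 ± 0.291 FPKM (SD, n = 5), and MMP19 and MMP25 averaged under 1 FPKM. FAP, a protease of activated fibroblasts, averaged 1.09 ± 0.483 FPKM and was highest in library 1. MMP2, MMP14, TIMP1 and TIMP2 were not analysed here.

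The ADAM genes encode membrane proteases, and the most even of all detected matrix genes was one of them. ADAM10, which sheds cell surface proteins, was at 20.8, 19.9, 20.6, 21.1 and 22.3 FPKM in libraries 1 to 5, an SD of 0.06 on the log2(FPKM + 1) scale. ADAM9 was at 17.1, 18.2, 22.6, 14.9 and 15.0 FPKM, highest in library 3. ADAM15 was the most uneven of the detected proteases, at 6.07, 5.75, 10.1, 1.398 and 8.86 FPKM, with library 4 far below the others. ADAM19 averaged 10.9 ± 1.66 FPKM, ADAM33 6.12 ± 1.82 and ADAM17, the TNF-alpha converting enzyme, 5.80 ± 0.988 (SD, n = 5). Of the secreted ADAMTS family, ADAMTS20, ADAMTS9, ADAMTS5, ADAMTS12 and ADAMTS17 averaged between 1.11 and 7.26 FPKM. ADAMTS5 and ADAMTS9 cleave the large proteoglycans. The ADAMTS-like genes, which lack a protease domain, were led by ADAMTSL4 at 7.755 ± 3.19 FPKM, with ADAMTSL2 at 3.096 ± 0.434 (SD, n = 5). ADAM22 averaged 2.85 ± 0.502 FPKM. ADAM8, ADAM12, ADAM32, ADAMTS6, ADAMTS7, ADAMTS8, ADAMTS16, ADAMTS19 and ADAMTSL3 averaged under 1 FPKM. In that set ADAMTSL3 reached 2.54 FPKM in library 1 and 1.87 FPKM in library 5, but stayed at 0.240 or below in the other 3.

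At the cell surface, PDGFRA, the receptor that marks fibro-adipogenic cells of muscle, was at 25.9, 19.9, 26.9, 32.1 and 26.8 FPKM in libraries 1 to 5, highest in library 4 and lowest in library 2. SDC2, a syndecan, was at 26.4, 16.8, 23.7, 26.9 and 31.1 FPKM, and GPC1, a glypican held by a lipid anchor, at 20.5, 19.2, 20.1, 24.7 and 14.4. Library 5 was thus the highest for SDC2 and the lowest for GPC1. SDC4, the syndecan of focal adhesions, was at 16.7, 6.47, 12.3, 6.19 and 9.61 FPKM, so that libraries 2 and 4 lay together at the bottom. PDGFRB, the receptor of pericytes, ran from 0.667 FPKM in library 4 to 4.91 in library 2, the reverse of PDGFRA in those animals. GPC4 averaged 5.04 ± 1.24 FPKM and GPC3 1.04 ± 0.444 (SD, n = 5), and GPC5, GPC6 and SDC1 averaged under 1 FPKM. The summed level of these 10 genes was 72.4 FPKM in library 2 and between 91.8 and 100.04 in the other 4.

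Across the whole set, library 1 was the high animal and library 2 the low one. The highest of the 5 values lay in library 1 for 43 of the 79 detected matrix genes (54.4%), while 24.4% of all 6136 detected genes were highest there. The lowest value lay in library 2 for 35 of the 79 (44.3%), against 20.7% of all genes. Library 5 was lowest for a further 20 (25.3%, all genes 15.4%), library 1 for 4 (5.06%, all genes 26.1%), and library 4 was highest for 20 (25.3%), the same share as the 25.3% of all genes. Library 2 was highest for 6, library 3 for 4 and library 5 for 6, or 7.59%, 5.06% and 7.59%, where all genes gave 15.5%, 17.5% and 17.2%. With library 1 left out, 39 of 76 detected matrix genes were highest in library 4 (51.3%, all genes 30.2%) and 17 in library 3 (22.4%, all genes 25.7%). With library 2 left out, 35 of 81 were lowest in library 5 (43.2%, all genes 20.9%). A direct setting of 2 animals gave 68 of 79 matrix genes higher in library 1 than in library 2 (86.1%, all genes 50.9%) and 64 of 79 higher than in library 5 (81.0%, all genes 48.3%). Library 4 exceeded library 2 for 59 of 79 (74.7%, all genes 54.5%). The median log2 difference on the log2(FPKM + 1) scale was 0.49 between libraries 1 and 2 over the detected matrix genes and 0.01 over all detected genes. No test was made, because a library has no replicate and the genes of 1 library are not independent. Among the 37 matrix genes under the detection limit, 21 (56.8%) were highest in library 1, where 30.8% of all genes under the limit were. Of the others, COL4A3 and COL4A4 were highest in library 2, LAMA3, LAMB3, COL20A1 and ADAMTS6 in library 3, and COL6A5, THBS2, ADAMTS16 and ADAM8 in library 4. COL11A2, COL23A1, FBN2, FBN3 and GPC5 were highest in library 5.

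**Figure D2:**
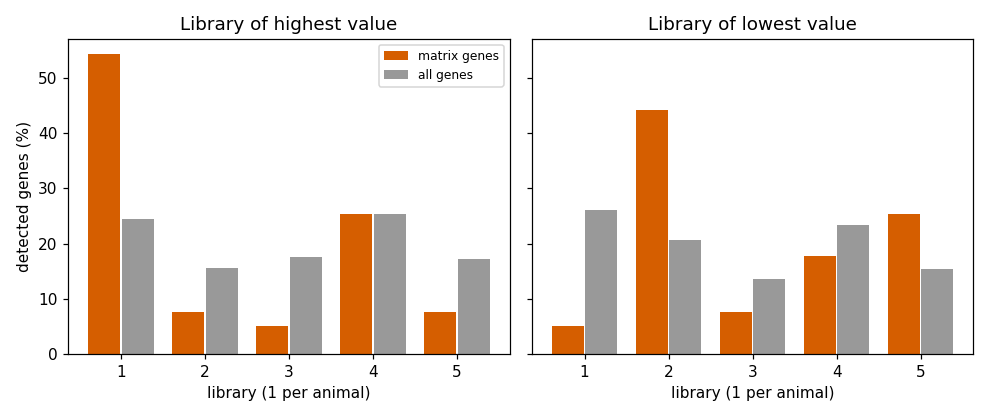
Share of detected genes (%) whose highest (left) or lowest (right) value lay in each library, for 79 matrix genes and for all 6136 detected genes. Library 1 holds the highest value of 54.4% of the matrix genes against 24.4% of all genes, and library 2 the lowest value of 44.3% against 20.7%.

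Most detected genes of every role group followed this order between libraries 1 and 2, and no test between the groups was made. Over all detected genes the share higher in library 1 than in library 2 was 50.9%. In groups of so few genes nothing is read from a single count. Library 1 exceeded library 2 for 5 of 5 detected fibrillar collagens, 7 of 7 adhesive glycoproteins, 5 of 6 type VI and other collagens and 11 of 13 elastic fibre genes. It did so for 10 of 12 basement membrane genes, 16 of 19 proteases and inhibitors, 7 of 9 processing genes and 6 of 7 surface genes, and for VCAN. The basement membrane counts, sums and median SD include COL4A3BP, which was higher in library 2. Without it 10 of 11 were higher in library 1, the median SD was 0.23 and the summed level spanned 1.18-fold. The median deviation from the gene means in library 1 was 0.52 for the fibrillar collagens, 0.50 for type VI and other collagens and 0.47 for the adhesive glycoproteins on the log2 scale. It was 0.18 for the proteases and inhibitors, 0.21 for the basement membrane and 0.00 for all detected genes. In library 2 the median deviation was negative in every role group, from -0.10 for the proteases and inhibitors to -0.52 for VCAN, against -0.02 for all detected genes. Library 4 was above the gene means for the fibrillar collagens (0.18), type VI and other collagens (0.19) and the processing genes (0.26). It was also above them for the elastic fibre genes (0.24), the adhesive glycoproteins (0.18) and VCAN (0.41). It lay below them for the basement membrane (-0.11), the surface genes (-0.08) and the proteases and inhibitors (-0.02), against 0.02 for all detected genes.

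**Figure D3:**
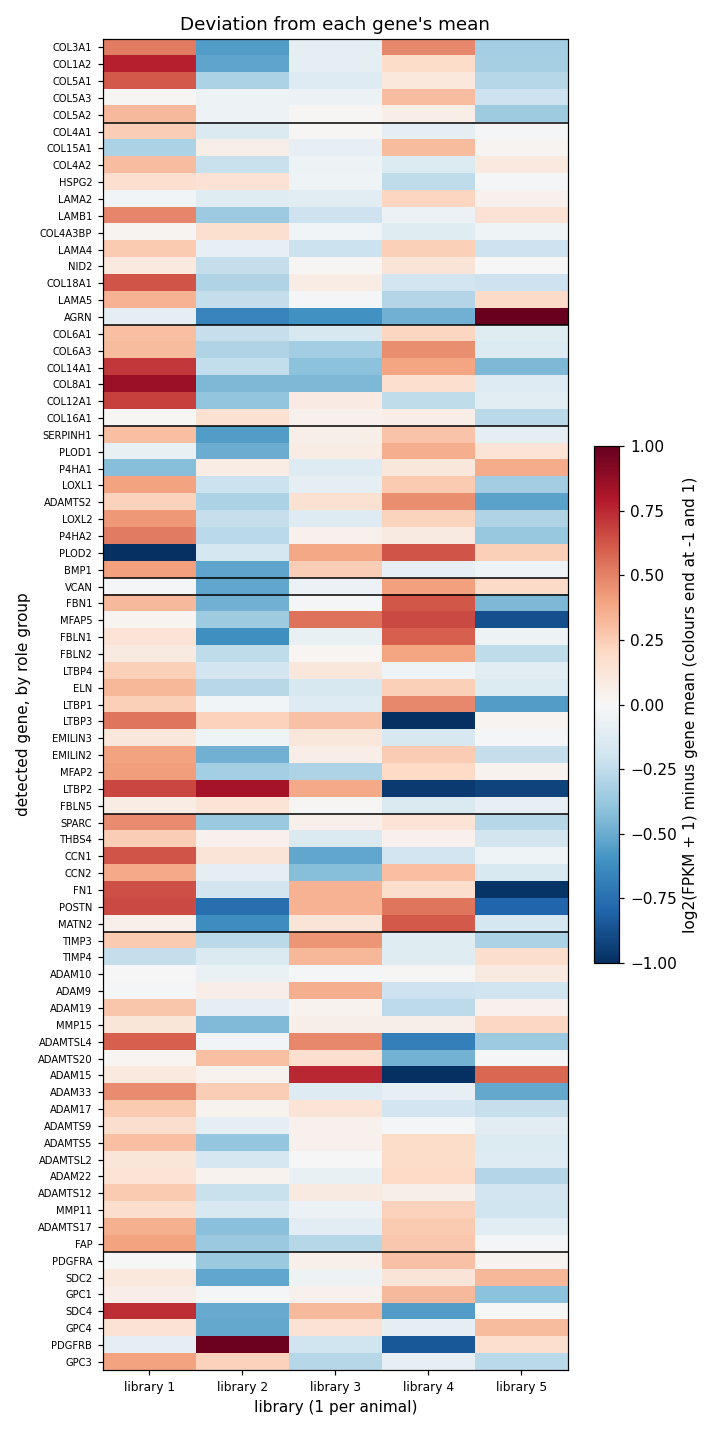
Deviation of log2(FPKM + 1) from each gene's mean over 5 animals, for the 79 detected matrix genes in rows, parted by role group, and the 5 libraries in columns; red is above and blue below the mean. Most rows are red in library 1 and blue in library 2, with P4HA1, PLOD2, COL15A1 and PDGFRB among those that are not.

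The median SD of log2(FPKM + 1) between animals was 0.32 over the 79 detected matrix genes and 0.25 over all detected genes, and this difference was not tested. Without library 1 these medians were 0.27 and 0.22. The matrix genes also had higher levels, with a median of 10.2 FPKM against 6.38, which bears on an SD on this scale. An SD of at least 0.7 was found for 4 of 79 (5.06%, all genes 8.15%), namely AGRN, LTBP2, ADAM15 and POSTN. The transcript numbers of LTBP2, ADAM15 and POSTN had gaps, so their sums may be partial. In 2 of 79 (2.53%, all genes 7.37%), AGRN and MMP15, 1 library stood apart, meaning that its gap to the nearest other value exceeded 0.71 of the whole range. Over all 116 listed matrix genes this count was 4 (3.45%, all listed genes 8.57%), with COL11A2 and TNC added.

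Other cell types and tissue parts were followed with marker lists, and some moved in the same direction as the matrix genes. The pericyte and smooth muscle markers, of which 4 of 5 listed were detected, summed to 93.6, 44.6, 76.1, 64.5 and 40.9 FPKM in libraries 1 to 5. ACTA2, smooth muscle actin, and TAGLN, a smooth muscle actin-binding protein, led them at 50.2 and 28.3 FPKM in library 1. MYH11 was at 7.82 FPKM there and at 0.821 or below elsewhere, and RGS5 was under 1 FPKM. ACTA2, MYH11 and RGS5 had gaps in their transcript numbers, so their sums may be partial. The same holds for CD34, TCF4, VWF and RUNX2 in the lists below. The immune markers, 3 of 4 detected, summed to 208 FPKM in library 1 and 122.9 to 140.2 in the others, nearly all of it CD74, the invariant chain of MHC class II, at 201 FPKM in library 1, with PTPRC next at 3.71. Adipocyte markers, 1 of 3 detected, ran from 33.0 FPKM in library 5 to 66.1 in library 4, almost wholly as LPL, which muscle fibres also express. PPARG averaged 0.893 FPKM and CIDEC was listed at 0 in library 5. Schwann cell markers, 4 of 4 detected and led by S100B and PMP22, ran from 41.8 FPKM in library 2 to 58.0 in library 4. The fibroblast markers other than matrix genes, 5 of 5 detected and led by GSN and CD34, ran from 357 FPKM in library 3 to 415 in library 4 and were at 388 in library 1 and 399 in library 2. Most of that sum was GSN, at a mean of 311 FPKM. Of the 5 markers 3, TCF4, PI16 and CLEC3B, were higher in library 1 than in library 2 (all detected genes 50.9%). The median deviation of the 5 markers from the gene means was 0.15 in library 1 and -0.07 in library 2 on the log2 scale. The gene TCF4 is not TCF7L2, the muscle fibroblast marker that is also called TCF4, and the sum, count and median include it. Endothelial markers, 6 of 7 detected and led by CDH5 and EGFL7, ran from 103 FPKM in library 2 to 117 in library 5, with VWF at 0.179 FPKM or below. The tendon markers, 1 of 3 detected, ran from 15.6 FPKM in library 2 to 24.2 in library 4, nearly all TPPP3; SCX was at 0.238 to 1.27 FPKM, and TNMD was at 1.62 FPKM in library 1 and listed at 0 in library 5. Cartilage and bone markers, 1 of 3 detected, summed to at most 2.68 FPKM, with ALPL in front, ACAN at most at 0.102 and RUNX2 listed at 0 in libraries 2 and 5. The satellite cell list came down to PAX7, at 0.135 to 1.36 FPKM. The muscle fibre markers, led by ACTA1 and TPM2, had their lowest sum in library 1, at 23810 FPKM, and their highest in library 4. Singly they were mixed: 5 of 10 were lowest and 4 of 10 highest in library 1, and ACTA1 was lowest in library 5. Over all detected genes 26.1% were lowest and 24.4% highest in library 1. With so few markers nothing is read from these counts. The part of these differences in the matrix result was not tested, and in bulk RNA fewer cells of a type and less RNA per cell cannot be told apart.

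Genes that work with the matrix without matching its name pattern were followed in 5 further lists. Of the 14 collagen receptor and adhesion genes, 9 were listed and 8 detected, led by DAG1, the dystroglycan that anchors laminin, at 71.8 ± 7.58 FPKM and the integrin chain ITGB1 at 44.5 ± 5.995 (SD, n = 5). Their highest value lay in library 3 for 4 of the 8 and in library 1 for 1. For these lists the shares over all detected genes were 24.4%, 17.5% and 25.3% highest in libraries 1, 3 and 4, and with so few genes nothing is read from a count. The collagen folding and secretion partners, 8 of 9 listed detected and led by the chaperone CANX at 53.5 ± 5.999 FPKM and TMEM38B at 21.3 ± 2.37, were highest in library 4 for 4 and in library 1 for 3 (SD, n = 5). Of the TGF-beta axis 7 of 10 listed genes were detected, led by TGFB2 at 19.3 ± 1.53 FPKM and SMAD2 at 14.2 ± 0.901, and 2 of 7 were highest in library 1 (SD, n = 5). TGFBR2 stayed at 0.1405 FPKM or below, with gaps in its transcript numbers. For collagen uptake and breakdown 2 of 4 listed genes were detected, MRC2, the receptor that takes collagen fragments into the cell, at 21.2 ± 4.51 FPKM and CST3 at 1.35 ± 0.576, neither highest in library 1 (SD, n = 5). Of 5 detected genes among other matrix glycoproteins, 3 were highest in library 1, among them IGFBP7 at 58.9 ± 9.89 FPKM (SD, n = 5); DAG1 was the most abundant in this list also. Whether these lists differ from the matrix genes was not tested.

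Gene pairs compared within each animal mostly held 1 order across the animals. Of 44 pairs written down, 20 had both genes listed, and in 19 of these the same gene was higher in 5 of 5 animals. Many pairs joined genes of unlike level, for which 1 order in all animals was likely beforehand. The same count over other gene pairs was not made, so nothing is read from the 19. The exact two-sided sign-flip permutation test cannot give p below 0.0625 with 5 animals; each of the 19 reached that value, 0.0658 after Benjamini-Hochberg adjustment over the 20 pairs, so none passed 0.05. COL3A1 exceeded COL1A2 by 3.86-fold, with a log2 ratio of 1.95 ± 0.20 (SD, n = 5). COL4A1 exceeded COL4A2 by 1.75-fold, and this was the steadiest ratio of the 20, at 0.81 ± 0.08 on the log2(FPKM + 1) scale and between 0.70 and 0.89 in single animals. With only the highest transcript of each gene it was 1.86 ± 0.13 (SD, n = 5), since COL4A2 has 2 transcripts of like level. COL6A1 exceeded COL6A3 by 1.29-fold, a log2 ratio of -0.37 ± 0.16 for COL6A3 over COL6A1. COL15A1 exceeded COL18A1 by 10.01-fold, but by a log2 ratio of 2.38 in library 1 against 3.17 to 3.83 in the others. Folds were taken back from the mean log2(FPKM + 1) ratio, so for genes of low level they are too small.

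Among pairs of other roles, FBN1 exceeded ELN by 2.62-fold, LTBP4 exceeded LTBP1 by 2.73-fold, and LAMA2 was 1.72-fold above LAMA4 and 9.33-fold above LAMA5. With only the highest transcript of each gene, the log2 ratio of LAMA2 over LAMA4 was -0.076 in place of 0.78, and that over LAMA5 2.36 in place of 3.22. COL5A1 was 9.03-fold above COL5A2. PLOD1 exceeded PLOD2 by a log2 ratio of 2.95 in library 1 and 1.63 to 1.85 in the other 4. P4HA1 exceeded P4HA2 by 0.57 in library 1 and 1.34 to 2.26 elsewhere, so both hydroxylase ratios had their extreme in library 1. ADAM10 was 3.25-fold above ADAM17, GPC1 3.46-fold above GPC4 and SDC2 2.41-fold above SDC4. PDGFRA was 9.01-fold above PDGFRB, with a log2 ratio from 1.82 in library 2 to 4.31 in library 4. HSPG2 exceeded AGRN by a log2 ratio of 4.83 ± 1.07, FBN1 exceeded FBN2 by 4.88 ± 0.48, P4HA1 exceeded P4HB by 11.04-fold and SPARC exceeded SPARCL1 by 7.81 ± 0.31 (SD, n = 5). In these 4 pairs the lower gene averaged under 2 FPKM, so the added 1 FPKM sets much of the ratio. The remaining pair, CCN1 and CCN2, did not separate: CCN1 was higher in 3 of 5 animals, with a log2 ratio of 0.02 ± 0.31 (SD, n = 5; exact p = 0.938, adjusted 0.938). COL5A2, COL4A2, COL15A1, LAMA2, ELN, LTBP1, SPARCL1, P4HA1, P4HA2, P4HB, SDC2, GPC1 and PDGFRA had gaps in their transcript numbers, so a ratio with one of them may rest on a partial sum.

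**Figure D4:**
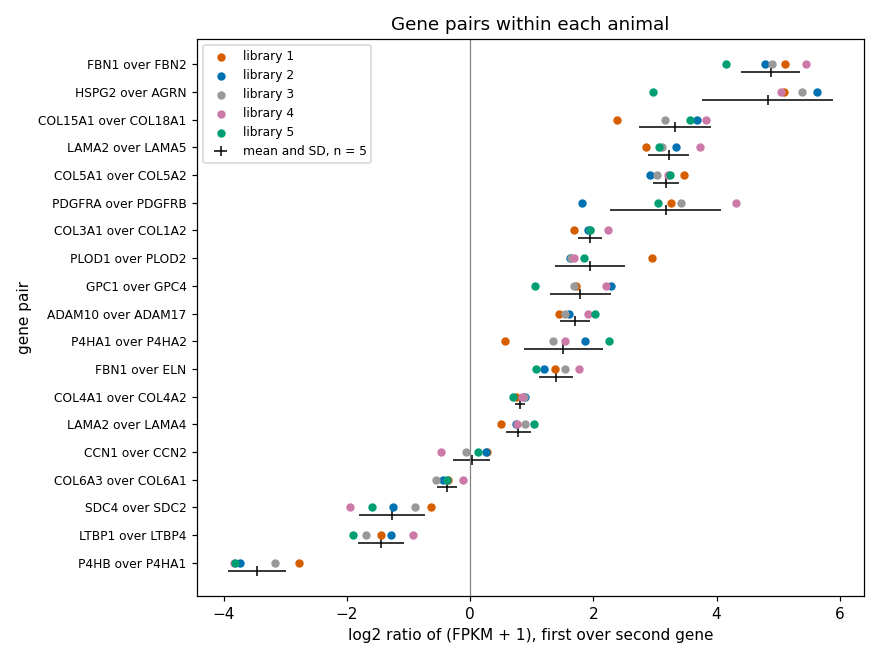
Log2 ratio of (FPKM + 1) of the first over the second gene in each library (points) with the mean and SD of 5 animals (black), for 19 of the 20 pairs; SPARC over SPARCL1, at 7.81 ± 0.31, is left off. The points of COL4A1 over COL4A2 lie closest together, and those of CCN1 over CCN2 straddle 0.

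Several transcripts were listed for 41 of the 116 genes, and in 32 of these the same transcript led in all 5 libraries. COL15A1 kept COL15A1-203 in front throughout, but at 45.7 FPKM in library 1 and 96.2 to 138 in the other 4. COL15A1-202 was at 27.02 FPKM in library 1 and 0.749 to 7.28 elsewhere, and COL15A1-204 at 13.8 against 1.36 to 2.96. Library 1, the animal with the lowest sum of this gene, thus held the highest values of its lesser transcripts. In COL1A2 the transcript COL1A2-201 held 78.1% of the mean and COL1A2-203 18.6%, and both were highest in library 1, at 139 and 45.8 FPKM. FN1, whose messenger RNA is known for alternative splicing, had a leading transcript, FN1-202, in 4 libraries but not in library 2. It was at 17.3, 25.5, 14.05 and 10.9 FPKM in libraries 1, 3, 4 and 5, but was listed at 0 in library 2, where FN1-205 at 12.2 and FN1-204 at 11.2 made up the sum. FN1-204 was listed at 0 in libraries 3, 4 and 5. In LAMA2, LAMA2-202 was at 17.6 to 20.8 FPKM in 4 libraries and listed at 0 in library 4, where LAMA2-203 was at 43.2 against 15.1 to 18.5 in the others, while the sum of both stayed between 34.1 and 43.2. How reads were divided between the transcripts of a gene was not tested. The transcript numbers of COL15A1, FN1, LAMA2, COL4A2 and VCAN had gaps, so transcripts of these genes may be missing. COL4A2 was carried by COL4A2-202 and COL4A2-204 at 41.0 ± 5.22 and 40.8 ± 7.63 FPKM (SD, n = 5), which lay within each other's spread. VCAN-202 carried 83.8% of the mean of VCAN, and SPARC-202 98.0% of that of SPARC.

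**Figure D5:**
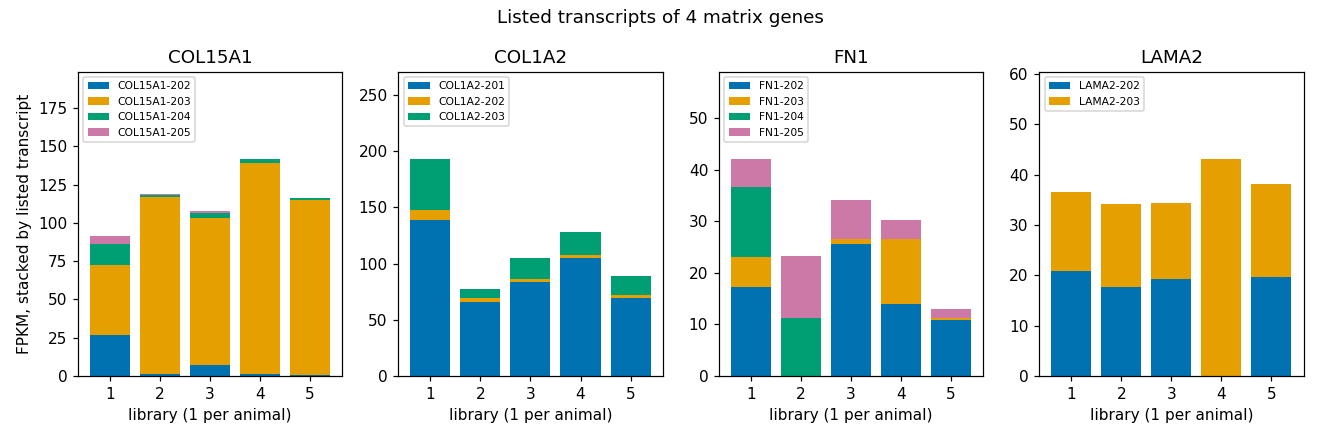
FPKM of the listed transcripts of COL15A1, COL1A2, FN1 and LAMA2, stacked, in each of the 5 libraries (1 per animal). In library 1 COL15A1-203 is at 45.7 FPKM, in library 2 FN1-202 is listed at 0, and in library 4 LAMA2-202 is listed at 0 while LAMA2-203 reaches 43.2.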

How the data were processed

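Per the file headers, the authors deposited FPKM per transcript in 5 libraries. The submitters' processing notes name UMD3.1, HTSeq 0.6.0 and DESeq2 1.10.1 with no role. The aligner and the FPKM program are not given in the sources used here. RefSeq positions on ARS-UCD2.0, found for 115 matrix genes through their symbols, overlapped those of the file in 115, so no build is claimed. Transcript values were summed per gene identifier; all columns were mapped to samples. Calculations in Python 3.11.15 (numpy 2.4.6, pandas 2.3.3, matplotlib 3.10.9) took log2(FPKM + 1), and genes averaging 1 FPKM or more counted as detected. Libraries tied for highest or lowest were counted for none. Pairs were tested with an exact sign-flip test, adjusted by Benjamini-Hochberg; the counting code was tested on simulated data. Depth is unknown, so no counting interval was computed, and p-values rest on the 5 within-library ratios of each pair.

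The matrix genes, role groups, pairs and lists were chosen with earlier results of these data known. Matrix genes were named by role group, except an item that is not reported here; values in each library were given for the 4 of highest mean in each role group, those with an SD of at least 0.7 or 1 library apart, and others where the text turned on them. The 2 highest members of each other list were named. Others named from the lists, such as VWF, TNMD and RGS5, were chosen after their values were seen. Alternatives were a pseudocount of 0.1, other detection limits, rescaling to a fixed total per library, median-ratio size factors, the highest transcript of each gene, and leaving out each library.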

Additional observations from a re-analysis of the deposited data

Results flagged for a closer look

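In 4 of the 116 matrix genes 1 library stood apart, by a gap above 0.71 of the range of the 5 libraries on the log2 scale; 8.57% of all listed genes met this, and chance alone gives about 1 in 20. Library 5 was high for AGRN (gap 0.776 of the range; 6.35 FPKM against at most 0.907) and for COL11A2 (0.822; 1.39 against at most 0.296). Library 1 was high for TNC (0.975; 1.99 FPKM against at most 0.0275). Library 2 was low for MMP15 (0.776; 5.50 FPKM against at least 8.22). Among sums and pairs, library 2 was low for the summed surface proteoglycans and PDGF receptors (0.734; 72.4 FPKM against at least 91.8). Library 5 stood apart for HSPG2 over AGRN (0.783; a log2 ratio of 2.97), which follows from AGRN, and library 1 for PLOD1 over PLOD2 (0.833; 2.95). Of the marker lists, PAX7, the gene that stood for satellite cells, was low in library 4 (0.768; 0.135 FPKM), and the immune markers were high in library 1 (0.751; 208 FPKM).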

How the results depend on the processing

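The count of detected matrix genes, their median spread, their share of FPKM and the count of pairs with 1 direction stayed within 1.5 times or within their error under all alternatives run. With 1 library left out in turn they ranged from 76 to 81, 0.27 to 0.35, 1.08% to 1.23% and 19 to 19. The count of pairs could not fall here, since a pair with 1 direction in all animals keeps it when any is dropped. The error of the median spread was computed from these same left-out values. The mean share cannot move by a whole SD when 1 library is dropped. Nothing is read from these ranges for the spread, the share and the pairs. The number highest in library 1 and the number lowest in library 2 also stayed within 1.5 times, at 44 to 55 and 35 to 46 with another library left out. A gene with its extreme in library 1 or 2 keeps it when another library is dropped. Apart from changes in the detected set, these counts could thus not fall. As shares these were 56.2% to 68.8% and 46.1% to 59.0%, beside 28.1% to 29.5% and 24.1% to 31.6% of all detected genes. With a fixed total per library, 48 of 79 (60.8%) were highest in library 1 against 33.1% of all genes, and with size factors 39 (49.4%) against 21.4%. Rescaling shifted the median of all genes by at most 0.08 upward, in library 1, and by -0.09 in library 4.

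Other counts moved. With 1 library left out, the numbers highest in libraries 2, 3, 4 and 5 ranged from 6 to 10, 5 to 17, 20 to 39 and 8 to 10, and the numbers lowest in libraries 1, 3, 4 and 5 from 4 to 6, 7 to 18, 14 to 22 and 20 to 35; genes whose extreme lay in the library left out then take a new one. At a limit of 5 FPKM, 2 were highest in library 2 and 8 lowest in library 4. With no limit, 8 were highest in library 3, 11 highest in library 5, 10 lowest in library 3 and 31 lowest in library 5. Shares over all genes were not computed at these limits, so nothing is read from these counts. Chosen after seeing the data, leaving out genes with gaps in transcript numbers left 55 detected genes, with 12 highest in library 4, and 2, 9 and 13 lowest in libraries 1, 4 and 5; 32 (58.2%) were highest in library 1 against 22.4% of all such genes. Leaving out COL4A3BP and LOXHD1, also chosen afterwards, moved no count by over 1.5 times. With the highest transcript in place of the sum, LAMA2 over LAMA4 turned to -0.076 ± 0.53 (SD, n = 5), LAMA2 over LAMA5 moved from 3.22 to 2.36 and COL4A1 over COL4A2 from 0.81 to 1.86; the levels of 12 genes moved by more than their SD, among them MFAP5 from 24.9 to 13.2 FPKM. That setting counts fewer transcripts; no other cause was tested. No paired analysis was possible because the 5 samples form 1 group.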
